A study of Mus musculus with 8 samples.

Results

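Hepatic stellate cells are the pericyte-like mesenchymal cells of the liver sinusoid, and 10 genes that mark them were followed here in whole liver: Pdgfra, Pdgfrb, Des, Hand2, Rgs5, Reln, Colec11, Cygb, Ecm1 and Adamtsl2. They were chosen as stellate-restricted genes other than collagens, proteoglycans and retinoid genes, and were matched by symbol. All 10 were found among the 52636 genes of the files, and all 10 were among the 15562 with enough counts to be tested. RNA of liver from C57BL/6 mice aged 8 weeks was sequenced in 8 libraries. The 4 WT libraries had the genotype CTCF fl/fl Albcre-, and the 4 cKO libraries had the genotype CTCF fl/fl Albcre+. Both groups therefore carried the floxed Ctcf alleles, and no group carried Cre without them. Cre was under control of the albumin promoter, used to delete genes in hepatocytes. The labels do not say whether each library came from a separate mouse, so a p-value covers the spread of these libraries alone, which may be technical.

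Stellate cells lie in the space of Disse between hepatocytes and sinusoidal endothelium, where they store vitamin A and make much of the liver's extracellular matrix. After injury they can become myofibroblasts, a change in which signalling through the PDGF receptors drives proliferation. They are a minor cell type, so in whole liver their transcripts are diluted by those of hepatocytes. In bulk RNA, more cells of a type and more RNA per cell cannot be told apart.

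Summed estimated counts ranged from 43899481 to 57279620 per library, and the genotypes were compared at an exact two-sided permutation p of 0.0571, cKO being deeper on average. Ctcf, which encodes the zinc finger protein deleted in cKO, fell from 16.5 ± 0.41 to 12.2 ± 0.95 CPM (SD, n = 4 each; CPM is the count scaled to 1e+06 counts of a library), a log2 change of -0.44 (SE 0.08, edgeR adjusted p = 0.00202). On log2(TPM + 1), where TPM is the authors' measure of abundance per unit of length, its adjusted p by limma was 0.161.

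All 10 stellate markers were higher in cKO, and 0 were lower, at an edgeR adjusted p under 0.05 (Benjamini-Hochberg over all tested genes). Over all tested genes 15.3% were higher and 15.1% were lower by the same rule, 30.4% in either direction. In each of the 10 genes every cKO library lay above every WT library in CPM, an order that 15% of tested genes had, while in 15.6% every cKO library lay below. The median log2 change of the 10 genes was 0.82, against -0.01 over all tested genes. Pdgfra rose most, 3.09-fold, and Colec11 least, 1.49-fold. A log2 change of at least 1 at an edgeR adjusted p under 0.05 was reached by 3 of the 10, Pdgfra, Rgs5 and Hand2. By the same rule, with its limit on p, 3.73% of tested genes rose that far.

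The share of rises among all calls depended on how libraries were scaled. It was 50.4% with TMM factors, 73.1% with totals as the only scaling, 69.1% with totals that leave out the 20 most abundant genes and 81.5% with limma on log2(TPM + 1). Under each of these settings all 10 markers were called higher.

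**Figure D1:**
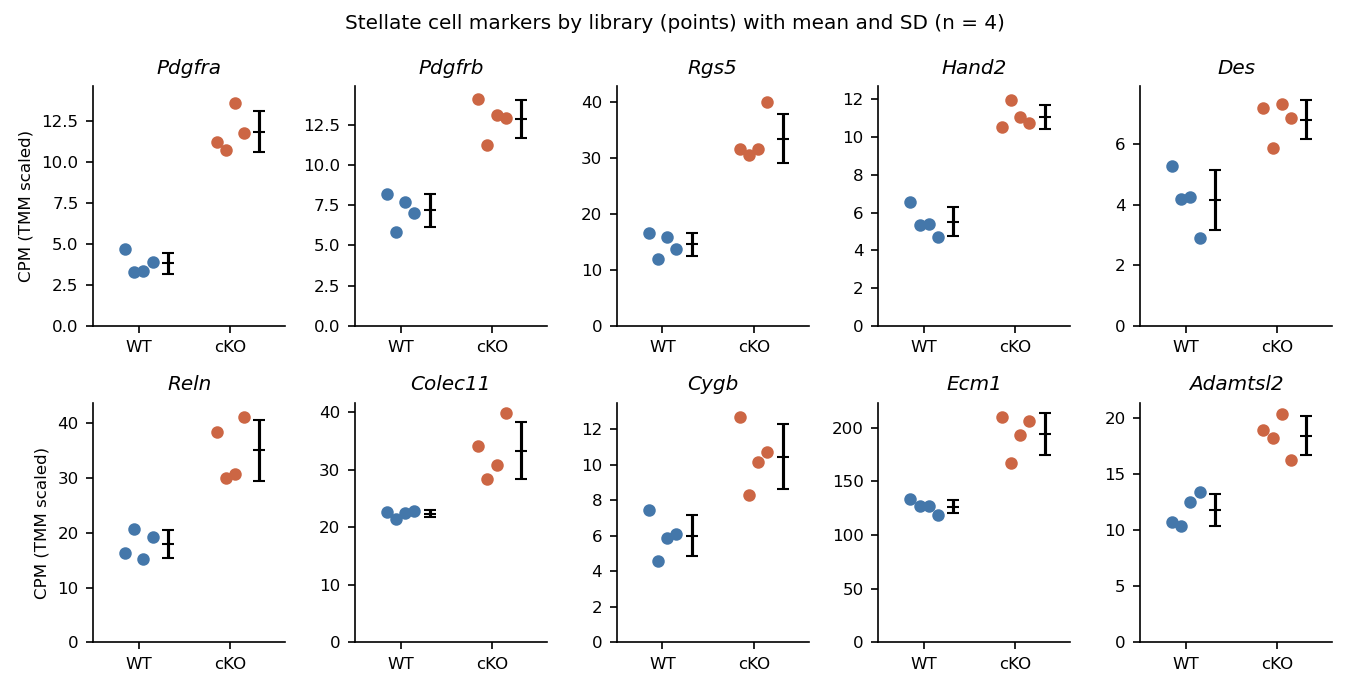
CPM (TMM scaled, each axis from 0) of the 10 stellate markers in each WT and cKO library (points), with the mean and SD of 4 libraries beside them. In every panel the 4 cKO points lie above the 4 WT points, and the gap is widest relative to the WT level for Pdgfra.

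The promoters of the 4 markers with the largest changes are shown because each of these genes rose. Each is the 250 bases before the transcript start in RefSeq's annotation of GRCm38.p6, with E-boxes (CANNTG, the core that basic helix-loop-helix factors such as Hand2 bind) in capitals. The stretches are chr5:75152001-75152250 on the plus strand for Pdgfra, chr1:169655251-169655500 on the plus strand for Rgs5, chr8:57320733-57320982 on the plus strand for Hand2 and chr5:22344706-22344955 on the minus strand for Reln. The Pdgfra stretch lies inside the annotated span of the gene, which begins further upstream.
Pdgfra: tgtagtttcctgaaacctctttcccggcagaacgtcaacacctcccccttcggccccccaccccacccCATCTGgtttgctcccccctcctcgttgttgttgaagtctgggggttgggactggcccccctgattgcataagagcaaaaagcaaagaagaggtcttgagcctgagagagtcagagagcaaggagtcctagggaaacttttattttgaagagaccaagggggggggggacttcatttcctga
Rgs5: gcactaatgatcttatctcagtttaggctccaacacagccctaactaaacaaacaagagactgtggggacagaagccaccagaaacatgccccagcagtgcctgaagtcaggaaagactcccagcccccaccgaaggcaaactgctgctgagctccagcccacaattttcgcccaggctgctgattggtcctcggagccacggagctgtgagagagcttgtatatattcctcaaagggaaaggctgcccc
Hand2: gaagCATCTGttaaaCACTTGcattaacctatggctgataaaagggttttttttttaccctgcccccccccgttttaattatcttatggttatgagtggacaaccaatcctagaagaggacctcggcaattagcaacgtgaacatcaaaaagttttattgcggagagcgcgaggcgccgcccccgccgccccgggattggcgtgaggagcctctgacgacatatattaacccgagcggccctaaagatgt
Reln: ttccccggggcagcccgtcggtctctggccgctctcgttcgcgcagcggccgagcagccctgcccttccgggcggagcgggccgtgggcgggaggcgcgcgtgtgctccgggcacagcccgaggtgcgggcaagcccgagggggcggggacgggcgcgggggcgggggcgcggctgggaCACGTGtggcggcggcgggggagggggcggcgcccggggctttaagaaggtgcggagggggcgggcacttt
Hand2 held 2 E-boxes, Pdgfra and Reln 1 each and Rgs5 0. The Reln stretch was 80.0% G or C, against a median of 52.4% over 32841 promoters. A promoter entry existed for 8 of the 10 markers, and 7 of these held an E-box on either strand, as did 66.2% of all promoters. The variant CATCTG, which also counts as an E-box, was in 3 of the 8 and in 14.4% of all. AGATAA, read by factors of the Gata family, was in 3 of the 8 and in 9.99% of all. GGGCGG, the GC box that Sp factors bind, was in 5 of the 8 and in 32.7% of all. TATAAA, the core promoter box, was in 2 of the 8 and in 12.4% of all, and the CArG box was in 0 of the 8 and in 1.47% of all. These are matches of letters and were not tested as binding sites.

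Pdgfra and Pdgfrb encode the PDGF receptors alpha and beta, tyrosine kinases through which PDGF ligands act on mesenchymal cells. Pdgfra (ENSMUSG00000029231, chromosome 5, 75151322 to 75198206) had 4.67, 3.30, 3.37 and 3.91 CPM in WT replicates 1 to 4 and 11.2, 10.7, 13.6 and 11.8 CPM in cKO replicates 1 to 4. Every cKO library was more than 2 times the highest WT library. On the log2 scale it rose by 1.63 (SE 0.13, edgeR adjusted p = 1.77e-05), and 1.14% of tested genes rose as much or more.

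Pdgfrb (chromosome 18, 61045127 to 61085067) had 8.22, 5.83, 7.70 and 7.02 CPM in WT replicates 1 to 4 and 14.1, 11.2, 13.1 and 12.9 CPM in cKO replicates 1 to 4. The lowest cKO library, replicate 2, was still above the highest WT library. Its rise on the log2 scale was 0.84 (SE 0.11, edgeR adjusted p = 0.000527).

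The alpha receptor rose more than the beta receptor when the pair was read within each library. The ratio of Pdgfra to Pdgfrb in TPM was 0.537, 0.466, 0.375 and 0.482 in WT replicates 1 to 4 and 0.728, 0.867, 0.869 and 0.777 in cKO replicates 1 to 4. The groups did not overlap. The log2 difference was 0.81 (exact two-sided permutation p = 0.0286, the smallest that 70 assignments allow). It was 0.0857 after Benjamini-Hochberg adjustment over 3 ratios, so it did not pass. A ratio that is alone at the smallest p cannot fall below 0.0857 after this adjustment, even with groups fully apart. The adjusted test therefore cannot decide whether the receptors changed unequally.

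Of the other 15 PDGF pathway genes tested, 5 were higher and 0 lower, with a median log2 change of 0.20. The ligand gene Pdgfd rose by a log2 change of 1.11 (SE 0.24, edgeR adjusted p = 0.0063), and Src, a kinase recruited to the receptors, by 1.05 (SE 0.18, adjusted p = 0.00201). Pdgfa, a ligand of the alpha receptor, rose by 0.49 (SE 0.12, adjusted p = 0.00917). Pdgfb and Pdgfc, also ligands, had log2 changes of 0.54 and 0.32 with adjusted p of 0.081 and 0.113, and both passed with library size alone. The count of 5 was 3 without cKO replicate 4, 8 with library size alone and 9 on log2(TPM + 1).

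Rgs5 (chromosome 1, 169655501 to 169695813) encodes a regulator of G protein signalling that is widely used as a pericyte marker. Its values were 16.7, 12.0, 15.8 and 13.7 CPM in WT replicates 1 to 4 and 31.6, 30.6, 31.7 and 40.1 CPM in cKO replicates 1 to 4. Replicate 4 of cKO stood above the other 3, which lay close together. The rise was, on the log2 scale, 1.20 (SE 0.12, edgeR adjusted p = 6.61e-05) and 1.10 without that library. Among 9 other RGS family genes tested, 0 passed by edgeR, 1 had an unadjusted p under 0.05, 0 passed by DESeq2, 1 by limma-voom and 2 by edgeR without WT replicate 2. Rgs4, also a gene of smooth muscle and pericytes, had a log2 change of 0.18 (adjusted p = 0.629).

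Hand2 (chromosome 8, 57320983 to 57324517) encodes a basic helix-loop-helix transcription factor of mesenchyme. It had 6.59, 5.36, 5.41 and 4.73 CPM in WT replicates 1 to 4 and 10.5, 12.0, 11.1 and 10.7 CPM in cKO replicates 1 to 4. The groups were far apart and the cKO libraries were close to each other. It rose by a log2 change of 1.00 (SE 0.11, edgeR adjusted p = 0.000112).

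Of 12 other transcription factor genes used by stellate cells, 5 rose and 1 fell, with a median log2 change of 0.45. Tbx20 rose by 1.28 (SE 0.18, edgeR adjusted p = 0.000646) and Tcf21, a factor of mesenchymal cells, by 0.71 (SE 0.12, adjusted p = 0.00186). Lhx2, whose loss in mice leads to liver fibrosis, rose by 0.79 (SE 0.19, adjusted p = 0.011), although its genotypes overlapped. Arid5b fell by 0.29 on the log2 scale (SE 0.07, adjusted p = 0.00935), and Gata4 had a log2 change of 0.05 (adjusted p = 0.781). The fall of Arid5b did not pass with library size alone (adjusted p = 0.0608) or with limma on log2(TPM + 1) (adjusted p = 0.354).

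Des (chromosome 1, 75360292 to 75368579) encodes desmin, the intermediate filament protein long used to stain stellate cells in rodents. It had 5.28, 4.18, 4.24 and 2.90 CPM in WT replicates 1 to 4 and 7.18, 5.87, 7.31 and 6.85 CPM in cKO replicates 1 to 4. WT replicate 1 came closest to the cKO libraries without reaching them. On the log2 scale it rose by 0.71 (SE 0.16, edgeR adjusted p = 0.00691), the largest adjusted p of the 10 markers.

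Acta2, the smooth muscle actin of contractile and activated cells, showed -0.61 on the log2 scale (SE 0.50, edgeR adjusted p = 0.399), and its genotypes overlapped. The ratio of Des to Acta2 in TPM ranged from 1.08 to 3.62 in WT and from 2.98 to 7.83 in cKO, and these ranges overlapped as well. The log2 difference of 1.07 did not pass (exact two-sided permutation p = 0.171, adjusted 0.257).

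Of 16 genes of myofibroblast activation, 8 were higher and 0 lower, with a median log2 change of 0.45. Loxl2, which cross-links collagen, rose by 1.32 (SE 0.17, edgeR adjusted p = 0.00034), and Postn, which encodes the matrix protein periostin, by 0.86 (SE 0.12, adjusted p = 0.000632). Tagln, which encodes an actin-binding protein of contractile cells, had a log2 change of 0.34 (adjusted p = 0.137) and passed without WT replicate 1 (0.53, adjusted p = 0.0167).

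Reln (chromosome 5, 21884454 to 22344705) encodes reelin, a large secreted glycoprotein that stellate cells make in the liver. It had 16.3, 20.7, 15.2 and 19.3 CPM in WT replicates 1 to 4 and 38.3, 29.9, 30.6 and 41.1 CPM in cKO replicates 1 to 4. Replicates 1 and 4 of cKO were higher than replicates 2 and 3, and all were above WT. Its rise on the log2 scale was 0.97 (SE 0.13, edgeR adjusted p = 0.000488).

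Of 8 genes tested that carry the reelin signal, 2 were higher and 0 lower, with a median log2 change of 0.10. Itgb1, the beta integrin chain, rose by 0.42 (SE 0.08, edgeR adjusted p = 0.00289). Pafah1b1, a partner of the signal inside the cell, rose by 0.25 (SE 0.07, adjusted p = 0.0195), a call that ended without WT replicate 1 (0.0535) or WT replicate 3 (0.0542). The reelin receptor gene Vldlr had a log2 change of 0.65 (adjusted p = 0.263), and passed without WT replicate 1 (1.14, adjusted p = 0.0235).

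Colec11 (chromosome 12, 28594172 to 28623458) encodes collectin-11, a secreted lectin that binds sugars and starts complement. It had 22.7, 21.4, 22.5 and 22.8 CPM in WT replicates 1 to 4 and 34.1, 28.4, 30.9 and 39.9 CPM in cKO replicates 1 to 4. The WT libraries were nearly equal, and the cKO libraries were spread above them. The rise was, on the log2 scale, 0.58 (SE 0.10, edgeR adjusted p = 0.00162).

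Colec10 encodes the partner chain with which collectin-11 forms a heteromer, and it rose by a log2 change of 0.65 (SE 0.17, edgeR adjusted p = 0.0182; 0.0549 without WT replicate 3). The ratio of Colec11 to Colec10 in TPM ranged from 7.64 to 10.3 in WT and from 7.31 to 10.1 in cKO. The log2 difference was -0.05 (exact two-sided permutation p = 0.686, also 0.686 adjusted), and it was 0.01 without WT replicate 3 and 0.03 without cKO replicate 4. Among 10 other genes of the lectin pathway of complement tested, Colec10 was the 1 that rose and 5 fell, with a median log2 change of -0.38. The mannose-binding lectin genes Mbl1 and Mbl2 fell by 0.63 (SE 0.08, adjusted p = 0.000296) and 0.62 (SE 0.09, adjusted p = 0.000843) on the log2 scale.

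Ecm1 (chromosome 3, 95734147 to 95739876) encodes extracellular matrix protein 1, a secreted glycoprotein that in mice keeps latent TGF-beta from being activated in liver. It had 134, 127, 127 and 118 CPM in WT replicates 1 to 4 and 211, 167, 194 and 206 CPM in cKO replicates 1 to 4. Replicate 2 of cKO was the lowest of its group and still above all WT libraries. It rose by a log2 change of 0.62 (SE 0.08, edgeR adjusted p = 0.000426), and it was 0.30 (adjusted p = 0.0194) with an offset for effective length. Hepatocytes also express Ecm1, so its level in whole liver is not that of stellate cells alone.

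Adamtsl2 (chromosome 2, 27079336 to 27108981) encodes a secreted protein that binds LTBP1 and fibrillin microfibrils. It had 10.7, 10.4, 12.5 and 13.4 CPM in WT replicates 1 to 4 and 18.9, 18.2, 20.4 and 16.2 CPM in cKO replicates 1 to 4. Replicate 4 was the lowest cKO library and the highest WT library, and the groups did not meet. On the log2 scale it rose by 0.65 (SE 0.10, edgeR adjusted p = 0.00114).

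Of 12 genes of microfibrils and latent TGF-beta binding, 10 were higher and 0 lower, with a median log2 change of 0.74. Ltbp1, which holds latent TGF-beta in the matrix, rose by 1.68 (SE 0.17, edgeR adjusted p = 6.61e-05), and Fbn1, which encodes fibrillin-1, by 1.11 (SE 0.15, adjusted p = 0.000388).

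Cygb (chromosome 11, 116645595 to 116654504) encodes cytoglobin, a haem protein that in liver marks stellate cells. It had 7.47, 4.6, 5.89 and 6.13 CPM in WT replicates 1 to 4 and 12.7, 8.30, 10.1 and 10.7 CPM in cKO replicates 1 to 4. The lowest cKO library, replicate 2, was the closest to WT. Its rise on the log2 scale was 0.80 (SE 0.16, edgeR adjusted p = 0.00387). Cygb overlaps Prcd in the annotation, which averaged 0.112 CPM in WT libraries and 0.292 CPM in cKO libraries. Of 5 genes of red blood cells, 4 globins and Alas2, 0 passed by edgeR, by DESeq2 or by limma-voom, and 0 had an unadjusted p under 0.05; without WT replicate 2, 4 were higher by edgeR.

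**Figure D2:**
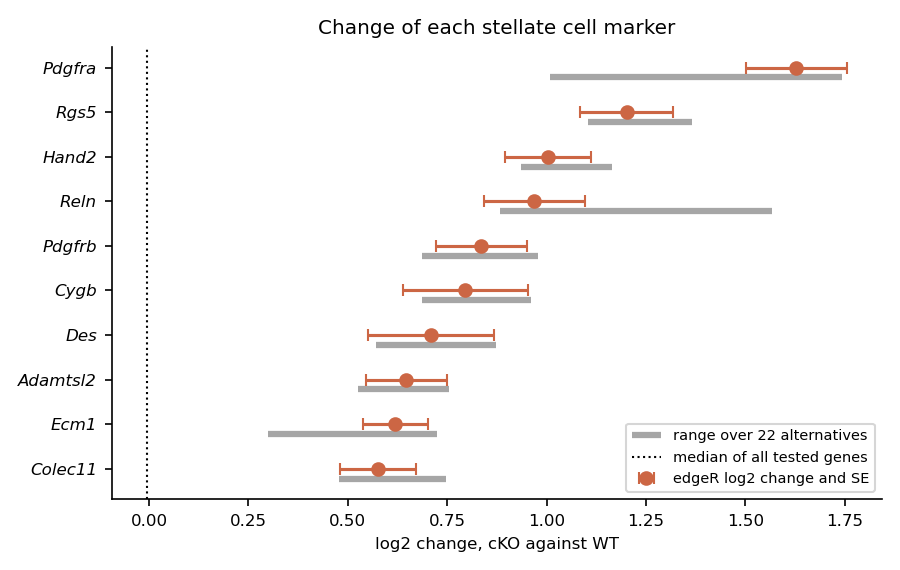
Log2 change of each stellate marker in cKO against WT by edgeR (points) with its SE (bars), the range over 22 alternative settings (grey) and the median of all tested genes (dotted). All ranges lie to the right of 0, and those of Pdgfra, Reln and Ecm1 are the broadest.

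Levels of different genes were compared in TPM, which is per length. In WT, Ecm1 was the highest at 135 ± 7.19 TPM, followed by Colec11 at 19.2 ± 0.35, Adamtsl2 at 7.38 ± 0.84 and Rgs5 at 3.89 ± 0.53 (SD, n = 4 each). Reln at 3.13 ± 0.61, Cygb at 2.93 ± 0.56 and Hand2 at 2.66 ± 0.37 TPM came next, then Des at 1.63 ± 0.42, Pdgfrb at 1.44 ± 0.20 and Pdgfra at 0.67 ± 0.15. Neighbours from Rgs5 to Hand2, and Des and Pdgfrb, had overlapping ranges in WT.

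In cKO the order was nearly the same, from Ecm1 at 188 ± 18.8 TPM and Colec11 at 32.6 ± 5.39 to Pdgfra at 2.36 ± 0.21. Hand2, at 6.06 ± 0.32, stood before Cygb at 5.78 ± 1.00, but their ranges overlapped. Pdgfra, the lowest in WT and clear of its neighbour there, overlapped Pdgfrb at 2.92 ± 0.29 in cKO. All 10 markers were also free of overlap between genotypes in TPM.

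**Figure D3:**
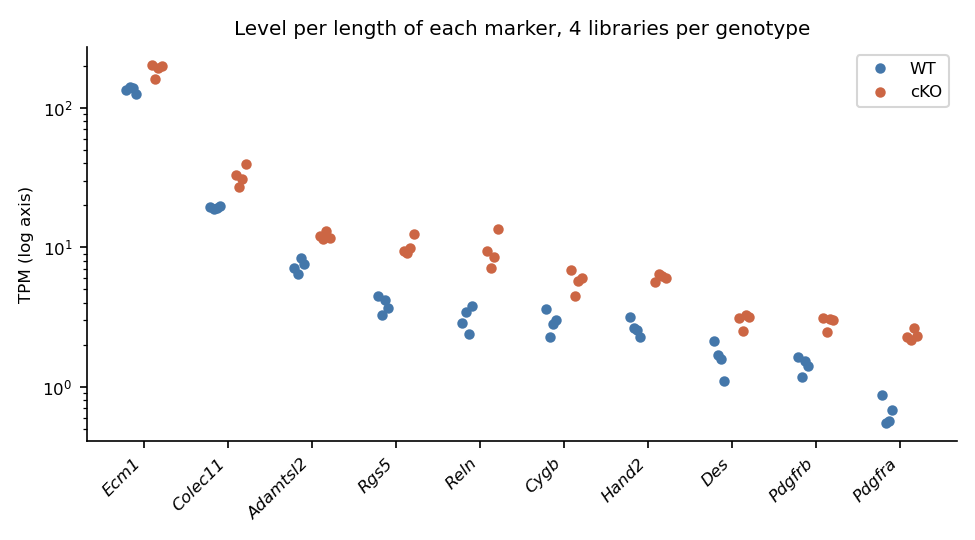
TPM on a log axis for each stellate marker, ordered by the WT mean, with 4 WT and 4 cKO libraries as points. Ecm1 lies far above the rest in both genotypes, and Pdgfra moves from well below Pdgfrb in WT to overlap it in cKO.

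Effective length is RSEM's estimate for a gene in a library, and it depends on the transcripts assigned to the gene. It differed by more than 10% between genotypes for 2 markers. For Reln it was 5353 to 6543 bases in WT and 3719 to 4864 bases in cKO, and its 3.07-fold rise in TPM was larger than its 1.96-fold rise in CPM. For Ecm1 it was 952 to 1036 bases in WT and 1205 to 1264 bases in cKO, and its rise was 1.40-fold in TPM against 1.54-fold in CPM. TPM was not scaled by TMM factors, so a gap between TPM and CPM does not measure length alone. Hand2, at 2170 to 2173 bases in WT and 2165 to 2178 in cKO, rose 2.28-fold in TPM and 2.01-fold in CPM. With an offset for effective length the log2 change of Ecm1 was 0.30, against 0.62 without it. The files name 15 transcripts for Reln and 10 for Ecm1, and which of them changed was not tested.

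Within a genotype, some libraries were high or low in most of the 10 markers. In WT, replicate 1 was above its genotype's mean in 8 of the 10 genes, replicate 3 in 6, replicate 4 in 5 and replicate 2 in 3. In cKO, replicate 4 was above it in 8 of the 10, replicate 1 in 7, replicate 3 in 6 and replicate 2 in 1. The mean deviation over the 10 genes ranged from -0.15 in cKO replicate 2 to 0.16 in WT replicate 1 on the log2 scale, and whether the genes varied together was not tested. Leaving out any 1 library kept all 10 calls.

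Of 12333 genes averaging 1 CPM or more, the profile over the 8 libraries nearest to the mean profile of the markers was that of Antxr1, with a root mean square distance of 0.073 on the log2 scale. Col4a1, a chain of basement membrane collagen, followed at 0.082, then Bgn, which encodes the proteoglycan biglycan, at 0.085, Pamr1 at 0.091 and Ptpdc1 at 0.092. Of the markers themselves Pdgfrb was nearest, at 0.090, and Pdgfra farthest, at 0.388. The genotype difference is part of each profile.

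Other stellate markers moved the same way for the most part. Of 24 tested, 18 were higher and 1 lower, with a median log2 change of 0.77. Lrat, which esterifies retinol for storage, rose by 1.45 (SE 0.09, edgeR adjusted p = 3.97e-06), and Abcc9, a channel subunit, by 1.09 (SE 0.09, adjusted p = 2.05e-05). Gdf2 and Bmp10, BMP ligands made by stellate cells, rose by 1.09 (SE 0.11, adjusted p = 9.06e-05) and 0.85 (SE 0.18, adjusted p = 0.00481). Cxcl12, a chemokine that endothelial cells also make, fell by 0.44 on the log2 scale (SE 0.10, adjusted p = 0.0065), and did not pass with limma on log2(TPM + 1) (adjusted p = 0.272).

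The older stellate markers of neural type did not pass the test. Gfap stood at 0.47 on the log2 scale (edgeR adjusted p = 0.454) at 0.265 ± 0.103 CPM in WT. Ngfr had -0.05 (adjusted p = 0.885), and its sign turned under 8 of the 22 alternatives, none of which passed.

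Portal fibroblasts are the mesenchymal cells around the portal vein and bile ducts. Of their 8 tested marker genes, 7 were higher and 0 lower, with a median log2 change of 0.89, and their summed level in CPM was 31.0 to 46.5 for WT and 58.7 to 78.0 for cKO. Dpt, which encodes dermatopontin, rose by 1.12 (SE 0.17, edgeR adjusted p = 0.00103) and Entpd2 by 1.07 (SE 0.16, adjusted p = 0.000903). The part of portal fibroblasts in the rise of the shared mesenchymal genes was not tested.

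Of 10 pericyte and smooth muscle genes, 3 were higher and 0 lower, with a median log2 change of 0.33 and a summed level in CPM of 19.6 to 27.2 for WT and 28.5 to 32.4 for cKO. Kcnj8, a channel gene of pericytes, rose by 0.75 (SE 0.17, edgeR adjusted p = 0.00714) and Mustn1 by 0.71 (SE 0.14, adjusted p = 0.00403). Myh11, the smooth muscle myosin, had a log2 change of -0.65 (adjusted p = 0.187). Of 5 mesothelial genes, with a median log2 change of 0.55, 1 rose, Wt1, by 0.93 (SE 0.26, adjusted p = 0.0204), a call that ended without WT replicate 3 (0.0617), cKO replicate 1 (0.0501) or cKO replicate 3 (0.0562), while 2 of the 5 passed without WT replicate 1.

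Sinusoidal endothelial cells, the neighbours of stellate cells, showed 0 of 10 markers past the threshold by edgeR, with 2 at an unadjusted p under 0.05 and 2 past it by DESeq2 and by limma-voom. Their median log2 change was 0.22, and their sum in CPM was 173 to 339 for WT and 241 to 363 for cKO. Lyve1 had 1.03 (SE 0.37, edgeR adjusted p = 0.0751), and passed by DESeq2 (adjusted p = 0.0379) and without WT replicate 2 (0.0057). Stab2, a scavenger receptor that defines these cells, had -0.01 (adjusted p = 0.974), with WT at 40.3 ± 9.30 CPM and cKO at 40.1 ± 5.63 CPM, and its sign turned under 12 of the 22 alternatives. Of 6 vascular endothelial genes, with a median log2 change of 0.27, 1 rose, Plvap, by 0.70 (SE 0.09, adjusted p = 0.000329).

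Of 8 Kupffer cell genes 1 rose and 0 fell, with a median log2 change of -0.16 and a sum in CPM of 244 to 370 for WT and 201 to 325 for cKO. Marco, a scavenger receptor, rose by 0.61 (SE 0.16, edgeR adjusted p = 0.0162; 0.0504 without WT replicate 3). Clec4f, which defines mouse Kupffer cells, had -0.16 (adjusted p = 0.521). Of 8 lymphocyte genes 3 were higher and 0 lower, with a median log2 change of 0.55. The sum of the 8 in CPM was 8.07 to 12.6 for WT and 11.3 to 15.7 for cKO. The 3 that rose, Cd3e, Cd8a and Nkg7, are genes of T and NK cells. Cd8a stood at 2.65 (SE 0.48, edgeR adjusted p = 0.00311) and Nkg7 at 1.12 (SE 0.28, adjusted p = 0.0114) on the log2 scale. The B cell genes Cd79a, Cd79b and Ms4a1 had log2 changes of -0.17, -0.60 and -0.13 (edgeR adjusted p = 0.8, 0.0861 and 0.782).

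Of 6 cholangiocyte genes 3 were higher and 1 lower, with a median log2 change of 0.84, close to the 0.82 of the stellate markers. Their sum in CPM was 34.9 to 43.6 for WT and 27.98 to 37.03 for cKO. Most of that sum was Spp1, which averaged 34.9 CPM in WT and 21.8 CPM in cKO, so it mainly followed that gene. Cldn7, a tight junction gene, rose by 1.86 (SE 0.24, edgeR adjusted p = 0.000355), Epcam by 1.5 (SE 0.21, adjusted p = 0.000551), and Spp1 fell by 0.68 on the log2 scale (SE 0.10, adjusted p = 0.00099). Of 8 skeletal muscle genes 1 had enough counts to be tested, Mylpf, which fell by 1.15 on the log2 scale (SE 0.20, adjusted p = 0.00227). The part of these cell types in the stellate marker values was not tested.

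Of 10 hepatocyte genes 1 rose and 5 fell, with a median log2 change of -0.22. Ttr, the transthyretin gene, fell by 0.68 (SE 0.13, edgeR adjusted p = 0.00292) and Serpina1c by 0.62 (SE 0.11, adjusted p = 0.00208) on the log2 scale, while Cps1 of the urea cycle rose by 0.58 (SE 0.15, adjusted p = 0.0166; 0.0516 without WT replicate 3). Their sum in CPM was 91378 to 120545 for WT and 102060 to 116742 for cKO, so the genotypes overlapped. The 5 falls were 3 without cKO replicate 1, 2 or 3, 3 with library size alone and 2 on log2(TPM + 1). How far the level of hepatocyte RNA set the stellate values was not tested.

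**Figure D4:**
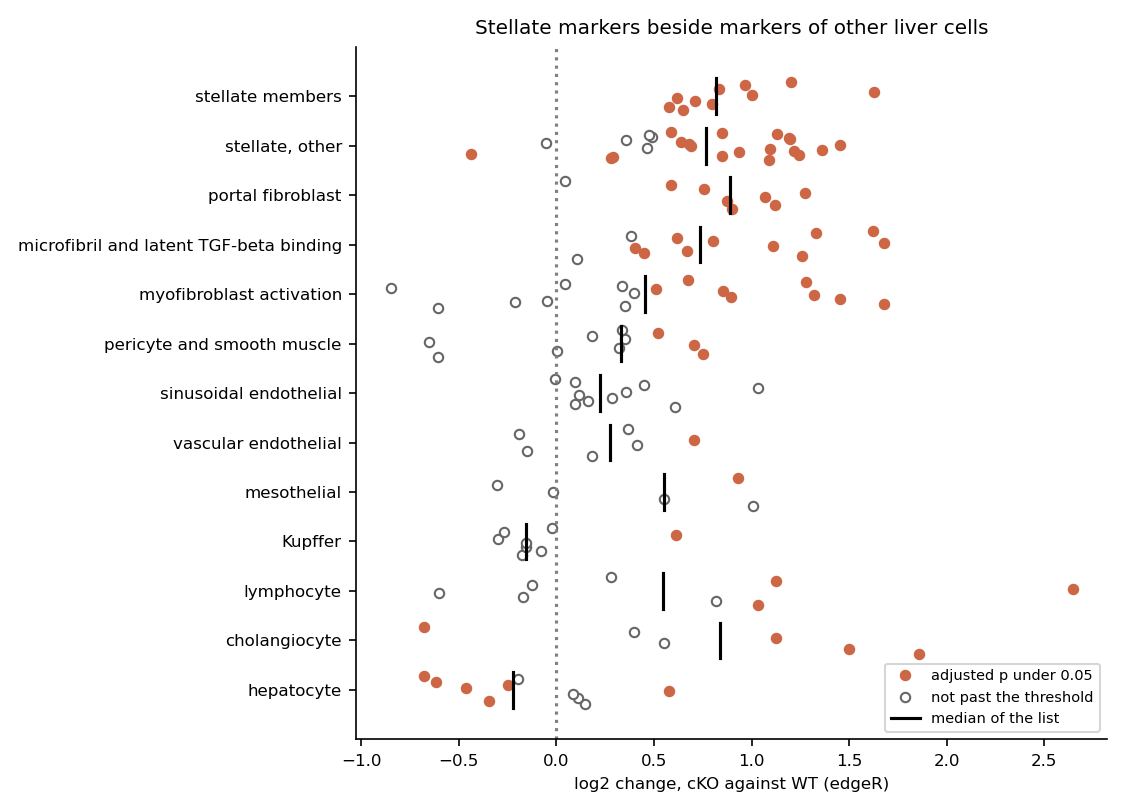
Log2 change of each tested gene in the stellate set and in 12 other gene lists (points, filled where the edgeR adjusted p was under 0.05), with the median of each list as a bar. The medians of both stellate lists and of the portal fibroblast, microfibril and cholangiocyte lists lie between 0.74 and 0.89, those of the mesothelial and lymphocyte lists are both 0.55, and the Kupffer and hepatocyte medians lie below 0.

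**Figure D5:**
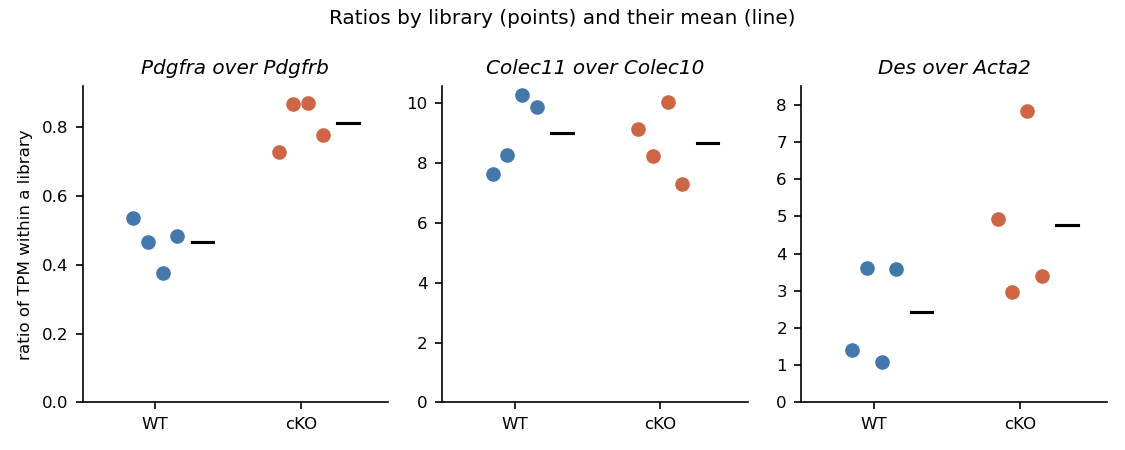
Ratio in TPM within each library (points) and its mean (line) for 3 pairs of genes in WT and cKO. The groups are apart for Pdgfra over Pdgfrb and overlap for Colec11 over Colec10 and for Des over Acta2.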

How the data were processed

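RNA of 8 mouse liver samples (4 WT, 4 cKO) was sequenced. Per the labels' protocols, livers were frozen, extracted with Trizol and made into libraries with a TruSeq RNA kit. Reads were processed with STAR 2.5.1 and RSEM on mm10, per the submitters' processing notes. Which annotation, strand option and release of RSEM were used is not given in the sources at hand. The authors deposited RSEM expected counts, estimates in which reads that fit several genes are divided, and TPM from the same estimates. Effective lengths come from the same deposited files, per the file headers. FPKM was not used. Without a known strand setting, overlapping genes (Des with Gm15179, Reln with pseudogenes inside it, Cygb with Prcd) are uncertain.

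Expected counts were rounded to whole numbers and filtered with filterByExpr (minimum count 10, minimum total 15), which kept 15562 of 52636 genes. The test of cKO against WT was edgeR 4.0.16's in R 4.3.3, with TMM factors, estimateDisp, robust glmQLFit in its newer form, glmQLFTest and Benjamini-Hochberg adjustment at 0.05. SE was derived from the F statistic. CPM used totals times TMM factors. The 3 ratios used exact two-sided permutation tests over 70 assignments. limma 3.58.1 and DESeq2 1.42.0 served as alternatives, with further scalings, filters, an effective length offset, the replicate number as a block and each library left out. Every pair of libraries within a genotype differed beyond sampling noise (lowest chi-square per degree of freedom 28.4). The legacy quasi-likelihood form was added after seeing the data.

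The members, lists and naming rule were chosen with earlier results of these data known. The rule named the 10 markers, Ctcf, the genes of the ratios, the 5 nearest profiles, and in each list the 2 genes of smallest p that passed with the opposite gene of smallest p. Pdgfa, Pdgfb, Pdgfc, Gata4, Lhx2, Gfap, Ngfr, Vldlr, Rgs4, Tagln, Myh11, Lyve1, Stab2, Clec4f, Gdf2 and Bmp10 were named after their values were seen. So were Cd3e, Cd79a, Cd79b, Ms4a1 and Alb. On simulated counts for 15375 genes, modelled on cKO against WT, 73.1% of 67 genes given a 1.5-fold change were called. So were 94% of 67 given a 2-fold and 100% of 66 given a 4-fold change. Of the calls, 4.81% were genes left unchanged. All other genes had equal means there, while in the data 30.4% of tested genes were called, so these shares need not hold for the data. Positions and promoters came from RefSeq's GRCm38.p6. Plots used matplotlib 3.10.9 (Python 3.11.15).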

Additional observations from a re-analysis of the deposited data

Results flagged for a closer look

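Rgs5 in cKO replicate 4 stood apart at 40.1 CPM, while the other 3 cKO libraries lay between 30.6 and 31.7 CPM. Its gap to the nearest library, divided by the range of the group, was above Dixon's 95% critical value for 4 samples, which chance exceeds in about 1 in 20 groups. The 10 markers in 2 genotypes gave 20 such groups, and this was the 1 that exceeded it, as many as chance would give. Without that library the log2 change of Rgs5 was 1.10, against 1.20 with it. The cause was not tested.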

How the results depend on the processing

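All 10 stellate markers kept their direction and their side of the threshold under all 22 alternatives, 8 of which left out a library (220 of 220 comparisons). Their median log2 change was 0.73 to 0.91 with a library left out, and 0.97 with limma on log2(TPM + 0.1), where the median of all genes was 0.15 and the difference between the medians 0.82. With limma on log2(TPM + 1) the median of the markers was 0.75, that of all genes 0.10 and the difference 0.66. Over all genes, rises and falls numbered 3621 and 1335 with library size alone, 3848 and 875 with limma on log2(TPM + 1), 3847 and 878 on log2(TPM + 0.1), and 1180 and 1048 at an adjusted p under 0.01; falls numbered 1442 without the 20 most abundant genes. With a library left out, rises ranged from 1752 to 2541 and falls from 1629 to 2509.

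The log2 ratio of Colec11 to Colec10 changed sign without WT replicate 3 (0.0141) and without cKO replicate 4 (0.0273), and ranged from -0.129 to 0.0273 with a library left out. Gata4 was -0.0355 without WT replicate 4. Ngfr turned positive with library size alone (0.0542), without the 20 most abundant genes (0.0274), on log2(TPM + 1) (0.0389) and log2(TPM + 0.1) (0.113), and ranged from -0.209 to 0.0958 with a library left out. Stab2 turned positive with library size alone (0.0939), without the 20 most abundant genes (0.0590), with no filter (0.00763), with the replicate block (0.00882), with limma-voom (0.0107), on log2(TPM + 1) (0.192) and log2(TPM + 0.1) (0.211) and with the effective length offset (0.00954), and ranged from -0.144 to 0.0907 with a library left out. Clec4f was 0.0222 on log2(TPM + 1) and 0.0224 on log2(TPM + 0.1). None of these passed the threshold.

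Among the lists, rises in the PDGF pathway numbered 8 with library size alone, 9 on either TPM scale and 3 at an adjusted p under 0.01; lymphocyte rises 5 with library size alone and on log2(TPM + 1), 1 at 0.01 and 0 with at least 1 CPM in 4 libraries, where mesothelial rises and muscle falls were also 0; and sinusoidal rises 2 by DESeq2, limma-voom and both TPM scales. RGS rises numbered 1 by limma-voom and with the replicate block and 2 on both TPM scales. Hepatocyte falls numbered 3 with either library size and 2 on both TPM scales and at 0.01. The 1 fall among transcription factors was lost with library size alone and on both TPM scales, as was that of Cxcl12 on both TPM scales; 1 globin gene fell with the length offset. At 0.01, rises numbered 5 for microfibrils, 4 for myofibroblasts, 1 for reelin and 0 for the Kupffer, hepatocyte, mesothelial and lectin lists, with 3 lectin falls. Without WT replicate 3, rises were 1 for reelin, 0 for the lectin, Kupffer, mesothelial and hepatocyte lists, and 1 lymphocyte gene fell.

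Same-numbered libraries shared only a number (correlations of deviations 0.0311 to 0.0469). With the number as a replicate block, 2525 genes were higher and 2416 lower, and all 10 markers were higher with a median of 0.82. The ratios had adjusted p of 0.375, 0.625 and 0.625 by sign flips within same-numbered pairs. Those flips are too few for any p under 0.05, so the ratios could not pass. Depth was no limit for the markers, whose lowest count was 124; low genes such as Gfap are less precise, and intervals cover these 8 samples only.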
